A study of Mus musculus with 8 samples.

Results

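Lactate dehydrogenase converts pyruvate and lactate into each other, and its tetramers are built from the subunits encoded by Ldha and Ldhb in most tissues. Creatine kinases move phosphate between ATP and creatine: Ckb and Ckm encode the cytosolic brain and muscle types, and Ckmt1 and Ckmt2 the ubiquitous and sarcomeric mitochondrial types. Creatine is made by the enzymes encoded by Gatm and Gamt and is taken up through the transporter encoded by Slc6a8. These 9 genes, of 39017 in the gene table, are described here in iGBs, B cells that acquire germinal center features in culture. Ldhb and Ckmt1 were chosen by their higher normalized counts in Prmt5-null than in control libraries, so their genotype difference is described and not tested. The other 7 genes are their paralogs and the genes of creatine synthesis and uptake.

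Splenic B cells of C57BL6/J mice were grown on 40LB cells, irradiated fibroblasts that express CD40L and BAFF, with 1 ng/mL IL-4, and at day 4 elutriation was used to remove feeder cells. Prmt5-null cultures came from 4 Prmt5F/F Cγ1-cre mice (numbers 10617, 10618, 10770 and 10771), and control cultures from 4 Cγ1-cre mice (CTRL-10650, then CTRL-10370, then CTRL-10596, and last CTRL-10597); values follow this order throughout. The Cre was therefore present in both groups, and it acts only after B cells are activated, so that deletion takes place during the culture. The study's animals were 2 to 4 months of age and of both sexes, with neither stated for single libraries. Each library is 1 mouse, and the totals recovered from the table were 47174851, 42752293, 43242655 and 46749607 reads in Prmt5-null libraries and 41629143, 50366174, 48664766 and 36731721 in control libraries. Values are normalized counts, that is, reads divided by a size factor for each library. The series description names 2 experiments by sample number, and no label ties the libraries to those numbers.

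Prmt5, the deleted gene, had 1291, 1994, 1060 and 1808 normalized counts in the Prmt5-null libraries and 13087, 11084, 11657 and 11267 in the control libraries. Every library matched its label, with Prmt5 reads still present in the Prmt5-null group (log2 difference -2.98 ± 0.17 SE, limma adjusted p = 6.14e-06).

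The B cell identity of the cultures was read from 8 markers, all detected. Their summed level was 181498 ± 12708 normalized counts in Prmt5-null and 178301 ± 7780 in control libraries (SD, n = 4 each). The difference did not pass an exact two-sided permutation test over libraries (p = 0.6857, adjusted p = 0.8572 over 6 marker lists). With 4 libraries a group this exact permutation test cannot go below p = 0.0286, so that 1 list alone could not pass after adjustment over 6, whatever its difference, and a missed threshold does not show that the groups are alike. For single genes, a call needed both a 1.5-fold change and an adjusted p under 0.05 by limma. Of the 8, 1 was called lower, Cd79a, a part of the B cell receptor, beside 2.99% of all genes tested. Of 5 T cell markers, Cd3e was at 0 in all libraries, and the sum of the list was at most 19.0 normalized counts in a library (p = 0.7143 by the exact permutation test). Fibroblast markers, a list of 12 genes that includes feeder cell transcripts, were present in every library. Their sum was 15784, 8186, 12495 and 11062 in the Prmt5-null libraries and 9751, 5474, 6211 and 7183 in the control libraries, in the order of mice given above. The groups overlapped, with CTRL-10650 above Prmt5-null 10618 (exact two-sided permutation p = 0.0571, adjusted p = 0.1713). The most abundant fibroblast marker was Thbs1, and 4 of 10 tested markers were called higher in Prmt5-null libraries, beside 3.49% of all genes tested. Myeloid markers summed to 244 ± 52.9 and 156 ± 45.9 normalized counts (p = 0.0571 by the exact permutation test, adjusted p = 0.1713), mostly Emr1, which was called higher, as 1 of 3 tested. Erythroid markers (p = 0.9714 by the exact permutation test) and muscle markers (p = 0.3143 by the exact permutation test) summed to at most 55.6 and 214 normalized counts in a library, with Hbb-bt and Tnnt3 the most abundant and the muscle myosin gene Myh1 at 0. Within the muscle list, neither of the 2 genes tested passed, Tnnt3 with a log2 difference of -0.637 and the muscle filament gene Des with 0.845 (limma adjusted p = 0.114 and 0.093). The list's sum was 150 ± 28.0 normalized counts in Prmt5-null and 173 ± 29.4 in control libraries (SD, n = 4 each). Below the minimum for testing, the other genes went in both directions. Myh7 had 1.85 to 6.12 normalized counts in the Prmt5-null libraries and Mb up to 2.16, with both at 0 in all control libraries, while Myh4 was at 0 in all Prmt5-null libraries and had up to 3.58 in a control library. Acta1 had 7.74 ± 4.81 and 10.9 ± 6.75 (SD, n = 4 each), and Myh2 reached no more than 2.37. In bulk RNA, fewer cells of a type and less RNA per cell cannot be told apart. According to the paper's methods, naive B cells were purified from spleen by CD43 depletion before they were plated. The part of the other cell types in the differences below was not tested.

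Across the 16250 genes tested, 6.48% were called (3.49% higher and 2.99% lower in Prmt5-null libraries). Of the 7 members not chosen for their rise, 5 had a mean of at least 10 normalized counts and were tested, and 1, Gamt, was called lower. Ckm and Ckmt2 fell below that minimum. The groups did not overlap in 4 of the 9 genes, with Prmt5-null libraries higher for 3 (Ldhb, Ckmt1 and Ckm) and lower for 1 (Gamt). Among all genes tested, 9.67% and 10.2% were separated in these directions. These shares leave out genes below the minimum, while the count over the 9 genes includes Ckm and Ckmt2. Since Ldhb and Ckmt1 were selected on this contrast, nothing is read from the count of 3.

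Ldhb, which encodes the heart type subunit (gene ENSMUSG00000030246, chr6:142490249-142507957, minus strand, GRCm38), had 168.5, 121.5, 222.9 and 162.5 normalized counts in the Prmt5-null libraries and 30.2, 25.0, 21.5 and 21.3 in the control libraries. The lowest Prmt5-null library was 10618, and it lay above every control library. These levels rest on 119 to 206 reads in a Prmt5-null library and 18 to 28 in a control library. The mean was 168.9 ± 41.6 against 24.5 ± 4.13 (SD, n = 4 each), 6.58-fold apart on the log2(normalized count + 1) scale.

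Ldha, which encodes the muscle type subunit (ENSMUSG00000063229, chr7:46841475-46855627, plus strand), was among the most abundant transcripts of these cells. It had 56670, 30489, 64984 and 38840 normalized counts in the Prmt5-null libraries and 61306, 75633, 51698 and 61337 in the control libraries. The Prmt5-null libraries spread widely, with 10618 and 10771 below all controls and the others within their range. The log2 difference was -0.44 ± 0.21 (SE), which did not pass the test (limma adjusted p = 0.184; 0.0348 to 0.363 over the alternatives). Without Prmt5-null 10770 the gene was called lower, with a log2 difference of -0.61 and an adjusted p of 0.0432. Pkm, which encodes a pyruvate kinase and was the most abundant gene of the pyruvate list, had the same order of Prmt5-null libraries, at 98348, 57784, 118279 and 72504 normalized counts. Rows of Ldha pseudogene copies, Ldha-ps and Ldha-ps2, held 79.7 ± 37.2 and 1505 ± 460 normalized counts in Prmt5-null libraries and 92.5 ± 12.6 and 1957 ± 291 in control libraries (SD, n = 4 each), and their reads cannot be told apart from Ldha reads with certainty.

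Levels of different genes were compared per kb of annotated exon. On this scale Ldhb was 0.0835% ± 0.0155 of the summed Ldha and Ldhb level in control libraries and 0.762% ± 0.114 in Prmt5-null libraries (SD, n = 4 each). Single libraries had 0.104%, 0.0695%, 0.0876% and 0.0733% in controls and 0.623%, 0.833%, 0.718% and 0.875% in Prmt5-null iGBs. Ldha therefore made up nearly all of the sum in both genotypes, and the share of Ldhb was highest in Prmt5-null 10771. The testis isoform gene Ldhc and the D-lactate enzyme gene Ldhd reached no more than 2.04 and 4.74 normalized counts.

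Ckmt1 (ENSMUSG00000000308, chr2:121357714-121363737, plus strand), which encodes the ubiquitous mitochondrial creatine kinase of the intermembrane space, had 372, 279, 336 and 289 normalized counts in Prmt5-null libraries and 40.9, 55.3, 57.3 and 52.1 in control libraries. All Prmt5-null libraries were above all controls, with 273 to 402 reads against 38 to 64. The means of 319 ± 43.5 and 51.4 ± 7.31 (SD, n = 4 each) lay 6.11-fold apart on the log2(normalized count + 1) scale. Strc overlaps the end of Ckmt1 by 10 bases on the other strand and reached no more than 2.04 normalized counts.

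Ckb, the brain type cytosolic creatine kinase gene (ENSMUSG00000001270, chr12:111669361-111672338, minus strand), had 146, 84.7, 123 and 80.3 normalized counts in Prmt5-null and 134, 196, 190 and 123 in control libraries. The groups overlapped, and the log2 difference of -0.58 ± 0.23 (SE) did not pass the test (limma adjusted p = 0.124; 0.0228 to 0.285 over the alternatives). Prmt5-null 10618 and 10771 were again the lowest of their group.

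Ckm, the muscle type gene (ENSMUSG00000030399, chr7:19404776-19422841, plus strand), had 24.1, 10.2, 18.4 and 14.9 normalized counts in Prmt5-null libraries and 2.15, 1.78, 1.79 and 2.37 in control libraries. Each control library held 2 reads, and the Prmt5-null libraries held 10 to 26. Summed reads were 69 and 8, a ratio per total read of 8.50 with a 95% exact Clopper-Pearson interval of 4.08 to 20.5 that covers counting error only. With an overall mean of 9.46 normalized counts, Ckm was not among the genes tested. Without the minimum, limma called it higher among 26696 genes (adjusted p = 0.00313), at a setting that called 976 genes. With 2 reads in each control library, the control values differed only by their size factors. Their spread is therefore not a measure of variation between mice, and nothing is read from this p. An antisense gene, A930016O22Rik, shares 451 exon bases with Ckm on the other strand and had up to 10.2 normalized counts in a Prmt5-null library and 9.86 in a control library. Ckmt2, the sarcomeric mitochondrial type, was at 0 in all 8 libraries, a count that allows a level of up to 2.68 to 3.55 normalized counts in a library (3 reads).

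Per kb, the makeup of creatine kinase transcripts differed between the genotypes, a description that the choice of Ckmt1 fixes in part. Ckb made up 72.9%, 74.9%, 73.6% and 66.2% of the summed creatine kinase level in control libraries, and 24.3%, 20.3%, 23.2% and 18.7% in Prmt5-null libraries. Ckmt1 made up 27.2% ± 3.62 in control and 75.1% ± 2.99 in Prmt5-null libraries, and Ckm 0.950% ± 0.311, from 2 reads a library, and 3.32% ± 0.648 (SD, n = 4 each). The Ckmt1 to Ckb ratio per kb was 0.381 ± 0.0743 in control and 3.52 ± 0.565 in Prmt5-null libraries. The summed level, which Ckmt1 enters, was 76.8 ± 15.1 in control and 171 ± 30.2 normalized counts per kb in Prmt5-null libraries.

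**Figure D1:**
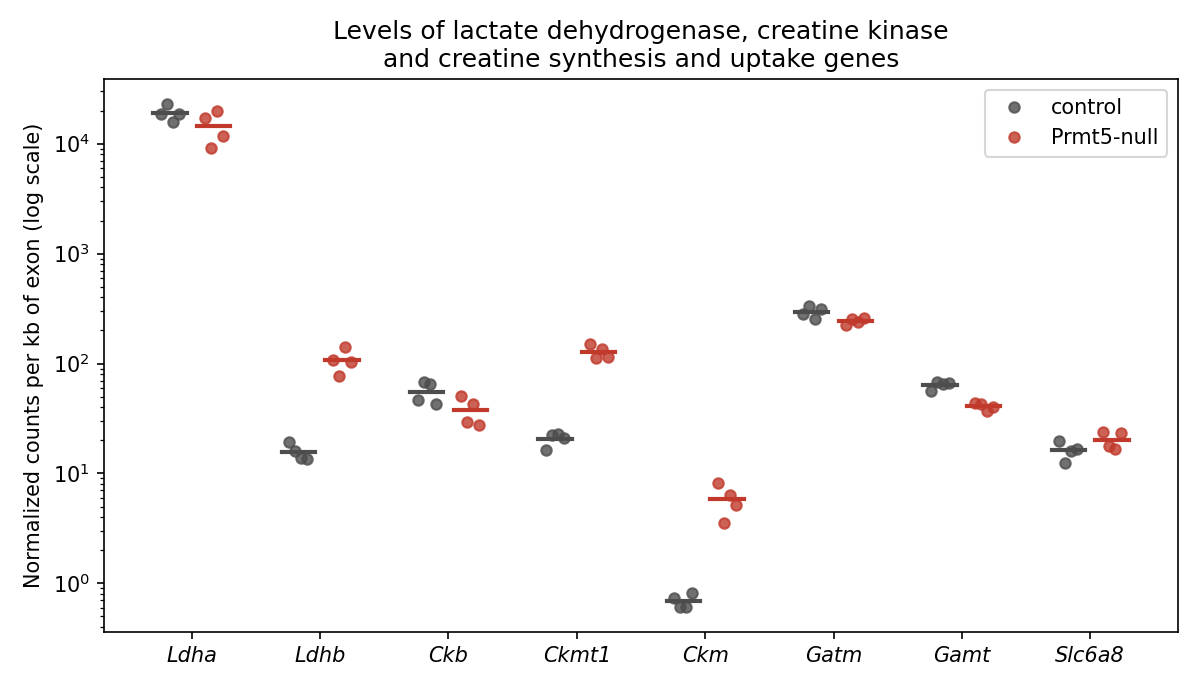
Normalized counts per kb of annotated exon, on a log scale, for 8 of the 9 genes in each control (grey) and Prmt5-null (red) library, with points for libraries and bars for group means; Ckmt2, at 0 in all libraries, is not drawn. Ldhb and Ckmt1 are higher in every Prmt5-null library, and Ldha is above all other genes.

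**Figure D2:**
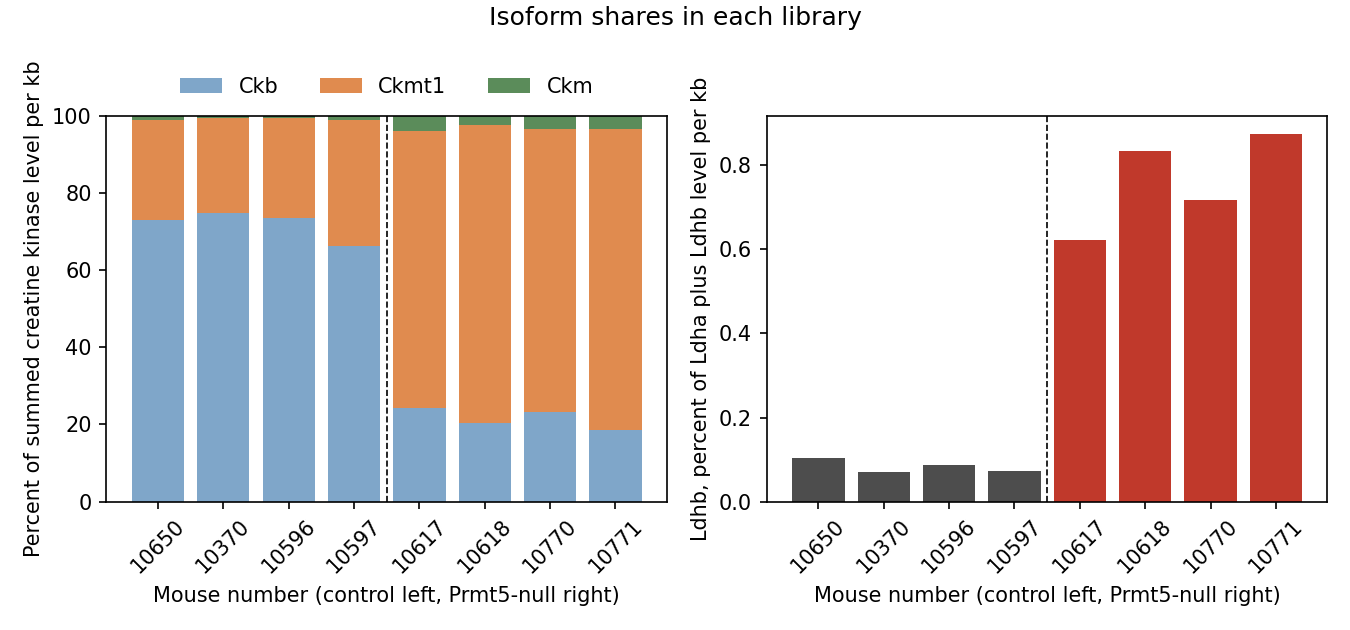
Percent of the summed creatine kinase level per kb made up by Ckb, Ckmt1 and Ckm in each library (left), and Ldhb as a percent of Ldha plus Ldhb per kb (right), with control libraries before the dashed line and Prmt5-null libraries after it. Ckb is the larger part in all control libraries and Ckmt1 in all Prmt5-null libraries.

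Synthesis of creatine begins with Gatm (ENSMUSG00000027199, chr2:122594467-122611303, minus strand), which makes guanidinoacetate from arginine and glycine. It had 679, 770, 722 and 781 normalized counts in Prmt5-null libraries and 847, 1000.3, 764 and 948 in control libraries. The groups overlapped in a narrow range, and the difference did not pass the test (log2 difference -0.26 ± 0.10 SE, limma adjusted p = 0.115; 0.0688 to 0.254 over the alternatives). Gamt (ENSMUSG00000020150, chr10:80258151-80261012, minus strand) encodes the methyltransferase that finishes the synthesis with a methyl group from S-adenosylmethionine. It had 63.0, 61.2, 53.0 and 57.9 normalized counts in Prmt5-null libraries and 81.9, 98.1, 94.1 and 96.0 in control libraries. Gamt fell in Prmt5-null iGBs, with all 4 libraries below all controls, by 1.56-fold (log2 difference -0.65 ± 0.17 SE, limma adjusted p = 0.0257; 0.0056 to 0.0696 over the alternatives). The call was lost without Prmt5-null 10771 (adjusted p = 0.0688), without CTRL-10370 (0.0684), CTRL-10596 (0.0653) or CTRL-10597 (0.0665), and without the minimum mean (0.0696).

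Slc6a8 (ENSMUSG00000019558, chrX:73673150-73682502, plus strand), the creatine transporter gene, had 123, 92.9, 86.6 and 121 normalized counts in Prmt5-null libraries and 103, 64.2, 84.2 and 86.5 in control libraries. The groups overlapped, and the log2 difference of 0.32 ± 0.20 (SE) did not pass the test (limma adjusted p = 0.312; 0.216 to 0.568 over the alternatives).

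Among the 9 genes the order per kb in control libraries was Ldha, Gatm, Gamt, Ckb, Ckmt1, Slc6a8, Ldhb, Ckm and Ckmt2. Gamt and Ckb did not lie apart in all 4 libraries, nor did any of Ckmt1, Slc6a8 and Ldhb from each other, and CTRL-10650 had more Ldhb than Ckmt1 per kb. Ckm lay above Ckmt2 by 2 reads in each control library. In Prmt5-null libraries the order was Ldha, Gatm, Ckmt1, Ldhb, Gamt, Ckb, Slc6a8, Ckm and Ckmt2, where Ckmt1 and Ldhb, and Gamt and Ckb, did not lie apart. Ldha was 63.7 times Gatm per kb in controls. By this level, among 15966 genes with a length, Ldha ranked above 98.8% in control and 98.4% in Prmt5-null libraries. Gatm ranked above 54.7% and 50.9%, Gamt above 27.9% and 22.7%, and Ckb above 26.2% and 21.8%, in the same order of groups. Slc6a8 ranked above 13.7% and 15.6%, and the genes chosen for their rise, Ckmt1 and Ldhb, above 15.8% and 37.8% and above 13.3% and 35.2%.

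Other genes of pyruvate and lactate handling were read from a list of 34, of which 30 were tested. Of these, 1 was called, Gpt2, the mitochondrial alanine transaminase gene, beside 6.48% of all genes tested, and 3 lower genes, Gpt2 included, and no higher gene had an adjusted p under 0.05, beside 7.33% and 6.51% of all genes tested. Gpt2 had 262, 286, 368 and 328 normalized counts in Prmt5-null libraries and 1119, 917, 695 and 776 in control libraries. It fell 2.79-fold with no overlap (limma adjusted p = 0.000166). The median log2 difference of the list was -0.10, beside 0.00 over all genes tested. Pkm and Bsg, the partner of lactate transporters, were its most abundant genes and did not pass the test (log2 differences -0.37 and -0.14; limma adjusted p = 0.229 and 0.538).

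Genes of creatine precursor supply and of arginine and glycine use numbered 19, of which 15 were tested. By limma none was called at the 1.5-fold minimum, while 1 higher and 5 lower had an adjusted p below 0.05 with smaller changes, and 7 had an unadjusted p below 0.05. Over all genes tested these shares were 6.48% called, 6.51% higher and 7.33% lower by adjusted p alone, and 29.3% by unadjusted p. edgeR and DESeq2 on the recovered reads each called 1 lower, beside 2.99% and 3.40% of all genes tested: Slc6a9, a glycine transporter gene named after its values were seen (limma log2 difference -0.77, adjusted p = 0.0558). The list's median log2 difference was -0.34. Its most abundant genes were Mat2a, which makes S-adenosylmethionine, and Shmt2, which makes glycine in mitochondria. They had log2 differences of -0.39 and -0.55, with limma adjusted p = 0.00624 and 0.00209, and neither reached 1.5-fold.

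Genes of phosphotransfer and of the partners of mitochondrial creatine kinase numbered 28, of which 24 were tested. Of these, 1 was called higher and 1 lower, beside 3.49% and 2.99% of all genes tested. By adjusted p alone, 2 were higher and 2 lower, beside 6.51% and 7.33%, and 4 had an unadjusted p below 0.05, beside 29.3%. The genes called were Ak1 and Nme3, and nothing particular to the list is read from them. Ak1, which encodes a cytosolic adenylate kinase, had 798, 602, 746 and 699.7 normalized counts in Prmt5-null libraries and 290, 243, 292 and 217 in control libraries. It rose 2.73-fold, with all Prmt5-null libraries above all controls (limma adjusted p = 8.25e-05). Nme3, a nucleoside diphosphate kinase gene, had 290, 223, 306 and 258 normalized counts in Prmt5-null libraries and 388, 418, 460 and 420 in control libraries. It fell 1.57-fold (limma adjusted p = 0.00567), and the list's median log2 difference was 0.01. Slc25a5, an abundant ATP and ADP carrier gene, did not pass (log2 difference -0.14, limma adjusted p = 0.354).

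**Figure D3:**
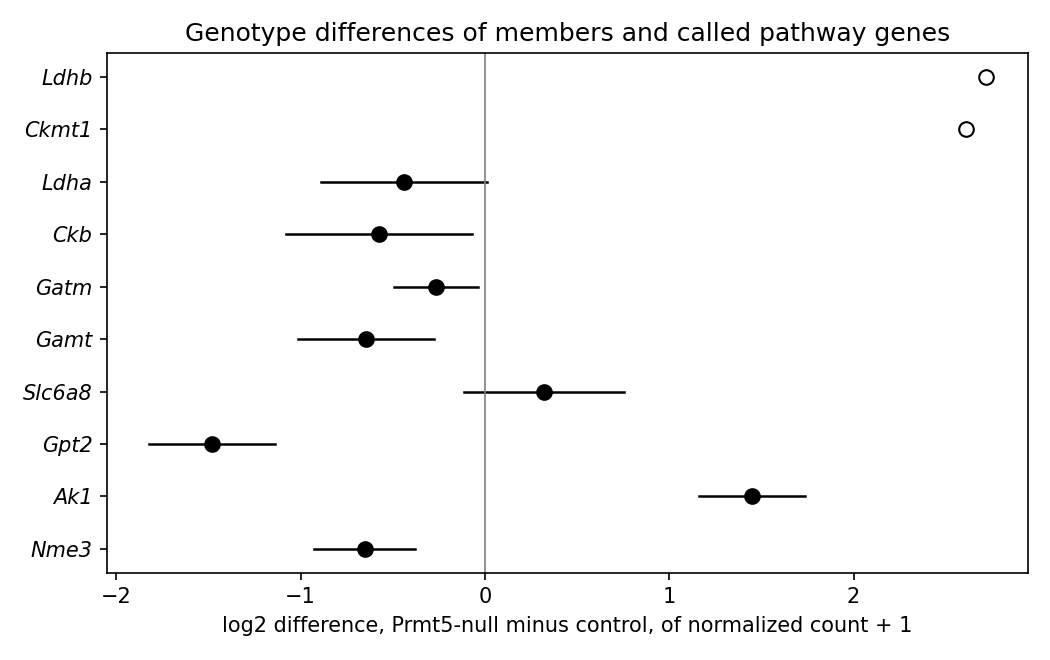
Log2 differences between Prmt5-null and control libraries in normalized count + 1, for the genes tested and for pathway genes that were called. Filled points have 95% intervals not adjusted for the number of genes, and open points (Ldhb and Ckmt1) are genes chosen on this contrast and carry no interval; Gpt2 and Nme3 lie below 0 and Ak1 above.

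No splicing event was listed for any of the 9 genes among 1918 events of 5 types. These lists hold only events past the authors' thresholds, in genes with a mean above 50 normalized counts, so that Ckm and Ckmt2 could not appear in them. Of the list genes, Shmt1 was listed for mutually exclusive exons, and Mpc1, Nme6 and Slc16a3 for skipped exons. The share of all genes with a mean above 50 that had a listed event was not computed. Nothing is therefore read from the absence of the other members or from the list genes named.

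Genes beside Ldhb on chromosome 6 were Golt1b, B230216G23Rik and Gys2 on one side and Kcnj8, Abcc9 and Cmas on the other. Golt1b and Cmas, the abundant ones, had log2 differences of -0.13 and -0.11 (limma adjusted p = 0.265 and 0.456), and B230216G23Rik had -1.02 (adjusted p = 0.128). Gys2 reached no more than 2.16 normalized counts, and Kcnj8 was at 0 throughout. Abcc9 was at 0 in all control libraries and had 1.85, 7.15, 2.16 and 7.47 normalized counts in Prmt5-null libraries. Beside Ckmt1 on chromosome 2 were Map1a, Gm14978 and Ppip5k1, and Strc, Catsper2 and Gm14001. Map1a, Ppip5k1 and Catsper2 had log2 differences of -0.25, 0.07 and -0.33, with limma adjusted p = 0.537, 0.704 and 0.392, and the others reached no more than 6.54 normalized counts.

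The genes whose pattern was most like Ldhb over the 8 libraries, by Pearson correlation of log2(normalized count + 1) among genes with a mean of at least 50, were Eif4b (r = 0.993), Fkbp10 (r = 0.991) and Loxl3 (r = 0.991). Those most like Ckmt1 were Pdcl3, Rarg and Dcaf4 (r = 0.995, 0.995 and 0.994). Correlation takes no account of the size of a change. Log2 differences were 0.498, 1.823 and 0.723 for Eif4b, Fkbp10 and Loxl3, beside 2.717 for Ldhb. For Pdcl3, Rarg and Dcaf4 they were 0.196, 1.695 and 0.67, beside 2.612 for Ckmt1. Eif4b and Pdcl3 were not called. These correlations share the genotype contrast on which Ldhb and Ckmt1 were chosen, and they are given with no p. Ldhb and Ckmt1 correlated with r = 0.974, which placed Ckmt1 at rank 43 of 13299 genes for Ldhb and Ldhb at rank 47 for Ckmt1. After removing the genotype means, their correlation was 0.0147, at ranks 6697 and 6665. The nearest genes were then Rpl31-ps11, Gm11516 and Bdh1 for Ldhb (r = 0.992, 0.988 and 0.987). For Ckmt1 they were Tab1, Aars2 and Nr2c2ap (r = 0.969, 0.965 and 0.964). These are the highest of 13299 correlations over 8 libraries, can be high by that selection alone, and nothing is read from them.

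Promoter windows of 300 bases were read for 8 of the 9 genes, 10 windows in all, from the RefSeq table of build GRCm38.p6, and Slc6a8 had no entry. The motifs searched on both strands, as descriptions and not as sites, began with the E-box CACGTG, found in 7.15% of all 32851 windows in the table. Its shorter form ACGTG, which every E-box match also holds, was found in 19.6%. The CCAAT box was in 37.4% of windows and the GC box GGGCGG in 35.7%. The cyclic AMP response element TGACGTCA was in 1.79% of windows and the TATA box TATAAA in 13.6%. Shown here are the parts before the RefSeq start of Ldhb and Ckmt1, the genes chosen by their rise, and of Ldha, the abundant paralog of Ldhb, outside annotated exons. Capitals mark motif matches on either strand. CG pairs numbered 17 in the Ldhb window, 4 and 10 in the Ckmt1 windows and 30 in the first Ldha window, more than 68.6%, 31.4%, 56.5% and 88.3% of all windows. The Ldhb and second Ckmt1 windows held CCAAT, the first Ckmt1 window held TATAAA outside the stretch shown, and the first Ldha window held CACGTG as well as GGGCGG and TGACGTCA. The second Ldha window had 13 CG pairs, more than 62.1% of windows, and held none of these motifs. Of the windows not shown, that of Ckb held CCAAT and TATAAA, that of Gatm ACGTG and CCAAT, that of Ckmt2 CCAAT and GGGCGG, that of Gamt GGGCGG, and that of Ckm none.

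Ldhb, chr6:142507958-142508207, minus strand: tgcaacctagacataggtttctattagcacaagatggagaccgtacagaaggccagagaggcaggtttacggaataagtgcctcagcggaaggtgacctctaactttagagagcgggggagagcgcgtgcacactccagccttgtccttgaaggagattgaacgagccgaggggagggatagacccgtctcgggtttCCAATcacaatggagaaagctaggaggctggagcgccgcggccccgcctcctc

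Ckmt1, chr2:121357526-121357713, plus strand: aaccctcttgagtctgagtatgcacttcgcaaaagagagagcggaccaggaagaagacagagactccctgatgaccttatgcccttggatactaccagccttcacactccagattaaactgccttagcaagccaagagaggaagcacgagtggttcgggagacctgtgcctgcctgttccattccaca

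Ckmt1, chr2:121358360-121358609, plus strand: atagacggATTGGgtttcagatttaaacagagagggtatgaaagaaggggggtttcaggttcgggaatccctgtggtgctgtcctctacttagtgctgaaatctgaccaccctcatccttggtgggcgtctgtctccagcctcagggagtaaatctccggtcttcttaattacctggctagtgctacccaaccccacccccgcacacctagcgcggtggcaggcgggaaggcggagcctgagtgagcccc

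Ldha, chr7:46845554-46845803, plus strand: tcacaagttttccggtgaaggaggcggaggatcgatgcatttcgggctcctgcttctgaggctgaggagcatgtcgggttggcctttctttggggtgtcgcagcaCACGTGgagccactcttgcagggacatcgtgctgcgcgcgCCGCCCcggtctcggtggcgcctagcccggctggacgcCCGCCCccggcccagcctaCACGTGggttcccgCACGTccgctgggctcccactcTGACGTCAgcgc

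Ldha, chr7:46846832-46847081, plus strand: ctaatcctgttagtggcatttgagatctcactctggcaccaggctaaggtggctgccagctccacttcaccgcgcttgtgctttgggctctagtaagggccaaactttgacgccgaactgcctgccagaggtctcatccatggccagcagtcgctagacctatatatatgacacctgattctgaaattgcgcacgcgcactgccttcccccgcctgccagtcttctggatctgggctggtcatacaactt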

How the data were processed

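RNA of 4 Prmt5-null and 4 control iGB cultures was sequenced. The authors trimmed reads with Trimmomatic 0.32, aligned them to GRCm38 with STAR 2.3.0e, counted uniquely mapped reads on Ensembl genes with featureCounts 1.4.4, and deposited a normalized signal, counts divided by DESeq2 1.14.1 size factors. The strand setting of the counting was not given in the sources used here, so overlapping genes are uncertain. All values (100%) came out as whole reads within 0.1, giving 36731721 to 50366174 reads per library. Genes with a mean of at least 10 were compared by limma 3.58.1 with a trend (R 4.3.3), on a log2 scale with a pseudocount of 1, and p-values were adjusted over all 16250 by Benjamini-Hochberg. On the recovered reads edgeR 4.0.16 called 1091 genes and DESeq2 1.42.0 called 1277. The script was tested on simulated data. Marker sums used exact permutation tests (smallest possible p 0.0286). Exon lengths came from GENCODE for GRCm38. Members and lists were chosen with earlier results of these data known. Named genes were the 9 genes, Prmt5, called and the 2 most abundant genes of each pathway list (at most 5 per direction), 3 neighbors on either side, the 3 most similar genes, listed splicing genes and pseudogene copies, of which some are not reported here. Slc6a9, single marker genes, Ldhc, Ldhd and A930016O22Rik were named after their values were seen. Splicing lists deposited by the authors also hold their own p-values and inclusion levels, which were not used. Alternatives changed the pseudocount, minimum, normalization, trend, tool, thresholds and libraries. A block for the experiment was also fitted, in all 18 placements. Each placement is assumed, since no label says which libraries shared an experiment.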

Additional observations from a re-analysis of the deposited data

Results flagged for a closer look

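In 108 groups of 4 libraries, 1 library stood far from the other 3 in 9, where chance flags about 1 in 20. The gap to the nearest library, as a share of the group's range, was 0.835 for Bsg in CTRL-10596 (10108 normalized counts, the lowest control), 0.833 for Golt1b in CTRL-10596 (2961, the lowest), and 0.873 and 0.855 for Pdcl3 in Prmt5-null 10770 and CTRL-10650. Erythroid markers stood apart in Prmt5-null 10617 (0.861) and muscle markers in Prmt5-null 10618 (0.901). For Gys2 in CTRL-10650, Gm14978 in CTRL-10597 and Gm14001 in CTRL-10596, the share was 1.0 because the other control libraries were at 0.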

How the results depend on the processing

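The number of genes called was 1053, and stayed within 1.5 times that count under every alternative except an adjusted p below 0.01 (637) and no minimum change (2249). It ranged from 795 to 1173 without 1 library and from 917 to 1243 over the 18 block placements. Of the 7 members not chosen for their rise, 1 was called (Gamt), 0 at an adjusted p below 0.01, and 0 to 2 without 1 library (Ldha joined Gamt without Prmt5-null 10770). Without the minimum mean, where 976 genes were called, the member called was Ckm in place of Gamt. Nothing is read from that call, as each control library held 2 Ckm reads. Gamt was called in all 18 block placements (adjusted p 0.0236 to 0.0444). Ldha and Ckb had an adjusted p as low as 0.0348 and 0.0228 in a placement, with changes under 1.5-fold. The log2 differences of Ldhb and Ckmt1 ranged from 2.54 to 2.86 and from 2.51 to 2.67 over the alternatives. Not divided by length, the Ldhb share was 0.363% in Prmt5-null and 0.0396% in control libraries, because the Ldhb exons are shorter. The share moved by less than the spread between libraries with Ldha pseudogene rows or without 1 library. The causes of the other moves were not tested. Depth limits Ckm and Ckmt2 most, with 2 and 0 reads per control library.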
